A study of Mus musculus with 16 samples.

Results

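Neuropeptide receptors are the cell-surface proteins through which secreted peptides such as somatostatin, orexin and cholecystokinin act on neurons. The 34 receptor genes described here were chosen by name, as G protein-coupled receptors of brain that bind peptides, and fall into 17 families by ligand. All 34 had a probe set of their own on both array types used, among 19938 genes on the arrays of the loss-of-function model and 22180 on those of the gain-of-function model. Each gene was read from its brightest probe set.

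A neuropeptide is released from dense-core vesicles, spreads beyond the synapse and changes the firing or transmitter release of cells that carry its receptor. The receptors signal through G proteins: Gi/o-coupled receptors (somatostatin, NPY, opioid, galanin and MCH receptors) generally dampen activity, Gq-coupled receptors (orexin, cholecystokinin, tachykinin, neurotensin, TRH, bombesin and oxytocin receptors) release calcium from stores, and Gs-coupled receptors (melanocortin, CRH, VIP and PACAP receptors) raise cyclic AMP. In cortex, many of the ligands are made by GABAergic interneurons, whereas orexin and MCH arrive in axons from the hypothalamus.

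Each mouse gave cortical RNA for 1 array. The loss-of-function mutants were *Map2k1 loxp/loxp;Map2k2-/-;Neurod6-Cre* mice, which lack *Map2k2* in all cells and lose exon 3 of *Map2k1*, the gene for the kinase MEK1 upstream of ERK, where Cre is active, and were compared with controls at postnatal day 9 (P9, 2 mutants and 2 controls) and P14 (3 mutants and 3 controls). The gain-of-function mutants (*ca-Map2k1;Neurod6-Cre*) overexpress a constitutively active *Map2k1* after Cre recombination and were compared with controls at P21 (3 mutants and 3 controls). Mice are numbered within an age: mutants were mice 1 and 4 at P9, 1, 9 and 11 at P14 and 1, 3 and 6 at P21, and controls were mice 2 and 3, then 2, 10 and 12, then 2, 4 and 5. *Neurod6-Cre* recombines in postmitotic excitatory neurons of the cortex and not in interneurons, so cells that escape recombination are part of every mutant sample. Controls were littermates with or without Cre, and the sources used here do not say which were hybridized or whether the loss-of-function controls lacked *Map2k2*. The labels name sensorimotor cortex and the study's methods dorsal cortex, from mice of mixed background, and loss-of-function mutants die within weeks of birth.

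Values are log2, so that a change of 1 is a 2-fold change in signal. The P9, P14 and P21 arrays were normalized apart, with array medians of 6.13 to 6.18, 7.91 to 8.08 and 6.23 to 6.31, so each age was tested alone, levels were not compared between ages, and P9 and P14 entered a joint fit only to compare their mutant minus control changes and as an alternative. Whole-gene *Map2k1* signal did not check the loss-of-function genotype, since the deletion takes a single exon: its P14 value was 10.74 to 10.88 in controls and 10.79 to 10.91 in mutants. *Map2k2* was likewise at a similar level, 9.01 to 9.18 in P14 controls and 9.06 to 9.14 in mutants (change 0.03, and 0.00 at P9), and the whole-gene signal of neither gene separated mutants from controls there. At P21 *Map2k1* was 10.08 to 10.12 in controls and 10.29 to 10.38 in mutants. At P14, mice 1 and 2 had arrays unlike those of mice 9 to 12 (25th percentile of 6.65 and 6.63, against 6.80 to 6.89), and after subtraction of the group means these 2 arrays deviated together, with a correlation of 0.76 across genes, which are not independent replicates. Each of these array sets holds both genotypes, and no label names them as batches. *Xist* and genes of the Y chromosome marked mutants 9 and 11 at P14 as female and every other mouse as male. With sex in the model, a P14 change is therefore that of mutant 1 alone against the controls. All 8 measured markers of cortical excitatory neurons were above the level of chemoreceptor probe sets, which served as background, in P9, P14 and P21 controls, as were 13 of 14, 14 of 14 and 13 of 13 interneuron markers. Of 7 hypothalamic markers, 4 were above that level in P14 controls and 1 in P21 controls.

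Which receptors had signal in these samples was asked first. A background line was drawn on each array at the 95th percentile of the probe sets for olfactory, vomeronasal and taste receptors, genes that cortex is not known to use, and a receptor was taken as above background in a group when it passed the line in every mouse. In control cortex 29 of the 34 receptors passed at P9, 24 at P14 and 21 at P21, and in mutants 29, 21 and 23. In all 6 groups 17 receptors passed: *Sstr1*, *Sstr2*, *Sstr3* and *Sstr4* (somatostatin), *Npy1r*, *Crhr1*, *Vipr1*, *Adcyap1r1* (the PACAP receptor PAC1), *Ntsr1* (neurotensin), *Mc4r*, *Oprd1* and *Oprl1* (delta opioid and nociceptin), *Hcrtr1* (orexin), *Cckbr* (cholecystokinin), *Oxtr*, *Trhr2* and *Mchr1*. *Mc3r* and *Galr1* passed in none, and the other 15 in some. A value below the line is not evidence that a receptor is absent, and probe sets differ in affinity, so distances from the line are not amounts.

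Among P14 controls, *Sstr4* stood farthest above the line, by 3.51 on the log2 scale, followed by *Adcyap1r1* (2.73), *Cckbr* (2.59), *Sstr2* (2.54), *Crhr1* (2.17), *Oprl1* (2.10) and *Mchr1* (2.09). In P9 controls the order was led by *Adcyap1r1* (4.04), *Sstr4* (3.99), *Sstr1* (3.97) and *Sstr2* (3.93), and in P21 controls by *Adcyap1r1* (3.52) and *Cckbr* (3.46). At P14 the steps between neighbours from *Adcyap1r1* down were smaller than the spread over control mice, which for *Cckbr* ran from 9.78 to 10.34 in log2 value.

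**Figure D1:**
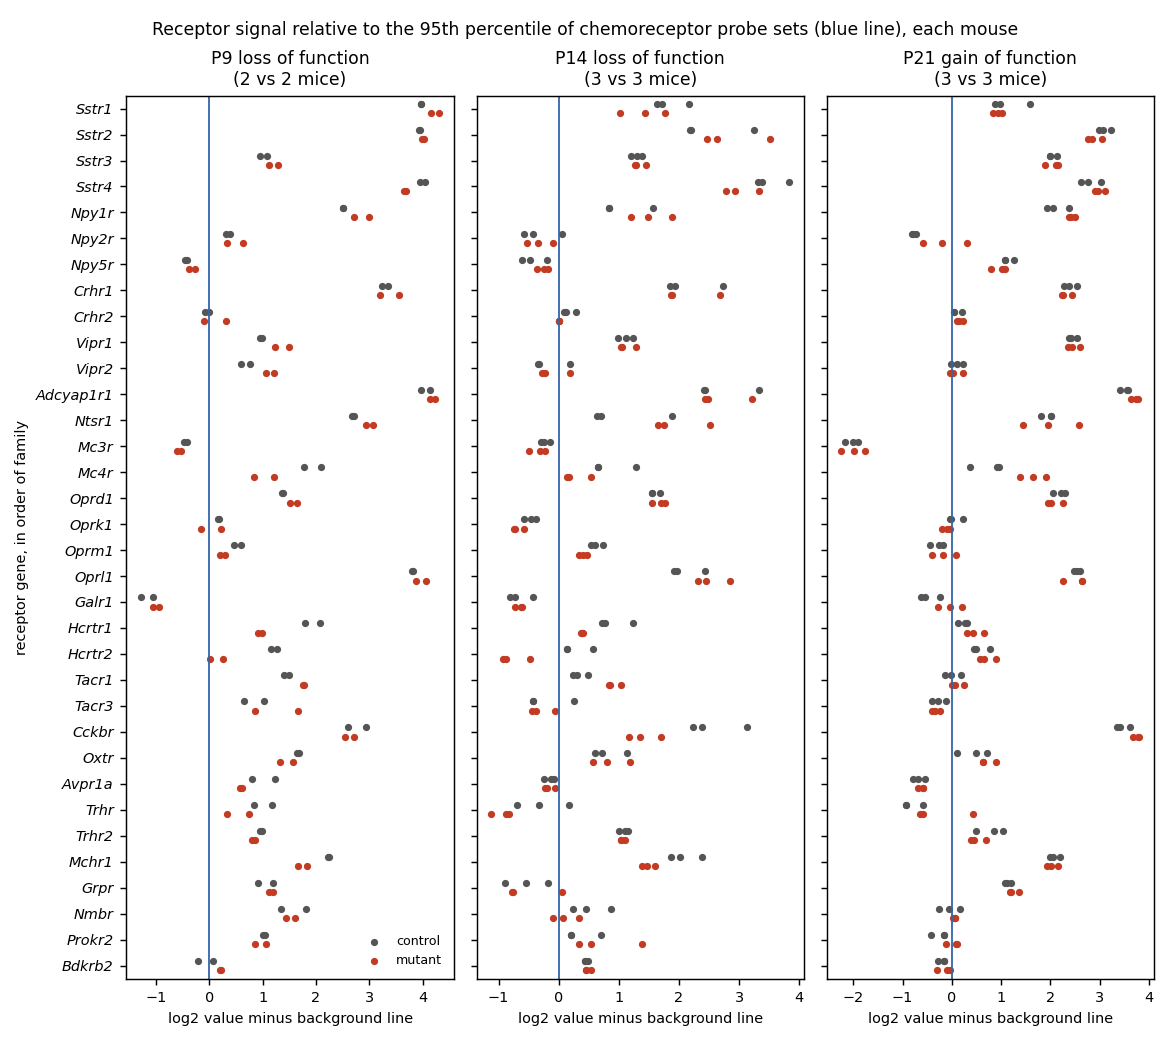
Log2 value minus the background line of the same array (x axis) for each of the 34 receptor genes (y axis, by family), with 1 point per mouse, controls grey and mutants red, at P9, P14 and P21. *Sstr4*, *Adcyap1r1* and *Cckbr* lie far to the right of the line at every age, *Galr1* and *Mc3r* lie left of it or straddle it, and the P14 mutants of *Hcrtr2* lie left of it while the controls lie right of it.

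In P14 loss-of-function cortex, *Hcrtr2* and *Cckbr* fell and no receptor rose past the test. These were 2 of 34 receptors called by limma at an adjusted p under 0.05, where 1.09% of all genes were called (217 of 19938). At the thresholds of the study's methods (a change above 1.5-fold with an unadjusted p under 0.05, here from limma), 4 receptors passed. Of all genes 1.66% did. *Hcrtr2* and *Cckbr* were lower, and *Ntsr1* and *Tacr1* higher. An unadjusted p under 0.05 was reached by 14 receptors (5 higher and 9 lower) and by 8.43% of all genes. In 12 receptors mutants and controls did not overlap, 5 higher and 7 lower in mutants, against 13.6% of all genes. The median change of the receptors was 0.08 and that of all genes 0.02, while the median size of change was 0.16 for receptors and 0.08 for all genes. As these are samples of whole tissue, fewer cells of a type and less RNA per cell cannot be told apart.

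**Figure D2:**
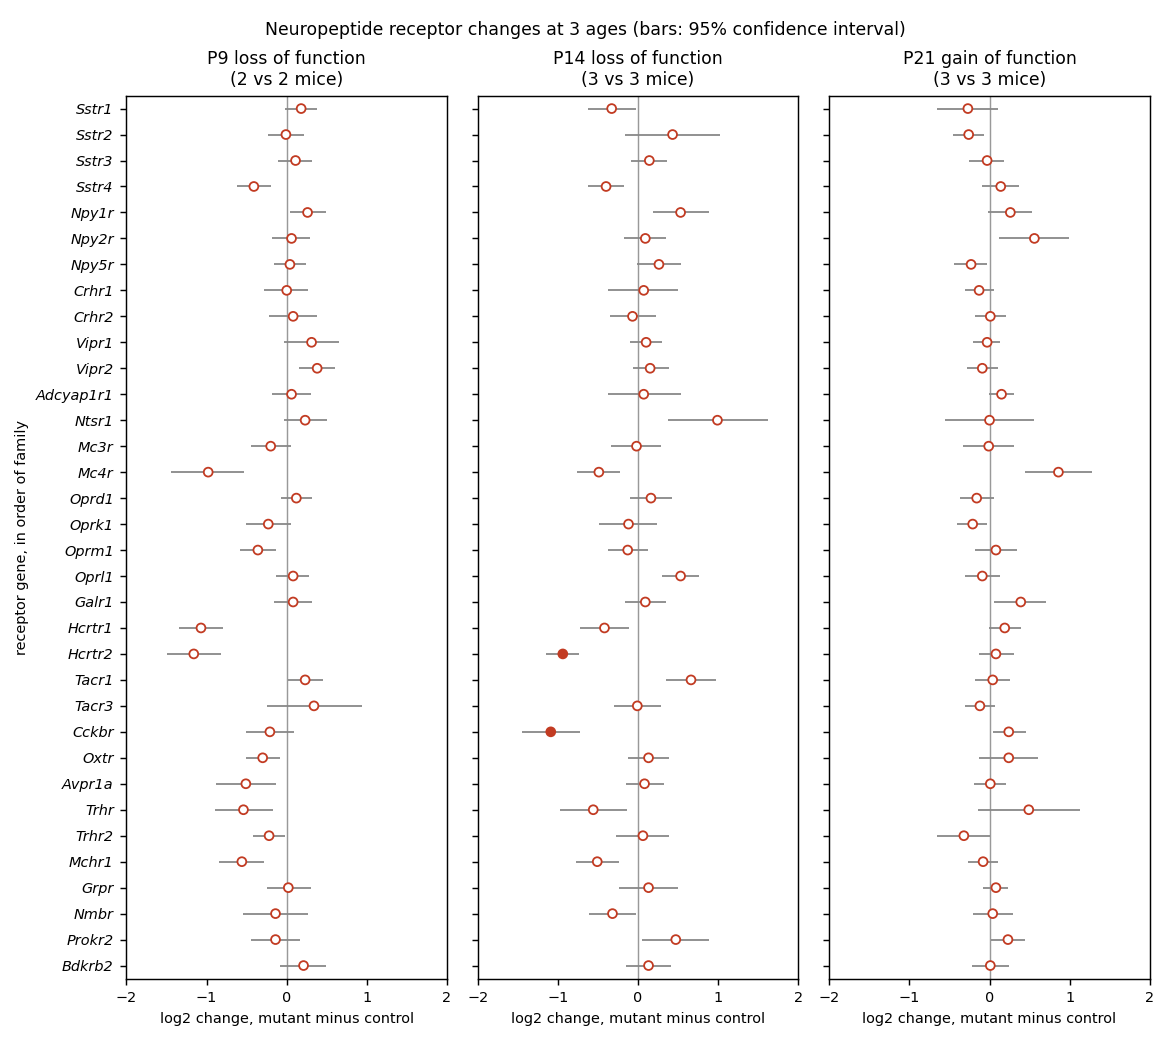
Log2 change, mutant minus control (x axis), of the 34 receptors (y axis, by family) at P9 and P14 in the loss-of-function model and at P21 in the gain-of-function model. Bars are 95% confidence intervals from limma and filled points are called at an adjusted p under 0.05: *Hcrtr2* (-0.94) and *Cckbr* (-1.09) at P14, and none at P9 or P21.

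The orexin receptors were the only family with a change of more than 1 in size at P9. *Hcrtr2* encodes the receptor for orexin A and orexin B, the hypothalamic peptides that sustain wakefulness, and in rat it mediates the excitation of layer 6b neurons by orexin. At P14 controls 2, 10 and 12 had log2 values of 7.78, 7.67 and 7.58, against 6.77, 6.73 and 6.71 for mutants 1, 9 and 11. Every mutant lay below every control, and all 3 mutants lay below the background line while the controls lay above it. Control 2 was 0.57 above the line and controls 10 and 12 only 0.13. The fitted change was -0.94 (standard error 0.09, adjusted p = 0.0057 from limma). Since the mutants lay below the line, its size is read as a bound: taking the line in place of the mutants' values, *Hcrtr2* was at least 1.14-fold lower. The call was lost without mutant 11 (adjusted p = 0.0555) and kept without any other mouse, with changes of -0.99 to -0.89. The call was also lost with sex in the model (-0.91), a fit that sets mutant 1 alone against the controls. At P9 *Hcrtr2* was 6.44 and 6.57 in controls and 5.17 and 5.53 in mutants, which is -1.16 (standard error 0.14) and was not called (adjusted p = 0.0925). At that age all 4 mice lay above the line, mutants 1 and 4 by only 0.02 and 0.26, and controls 2 and 3 by 1.16 and 1.27.

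*Hcrtr1*, the orexin A receptor best known from noradrenergic neurons of the locus coeruleus, was 7.36 and 7.09 in P9 controls and 6.13 and 6.18 in P9 mutants. The mutants lay together and well below both controls. The change was -1.07 (standard error 0.11, adjusted p = 0.0715 from limma). At P14 it was 8.44, 8.26 and 8.22 in controls and 7.62, 8.06 and 7.97 in mutants, with mutant 1 lowest and the groups apart. That change was -0.42 (standard error 0.13, adjusted p = 0.311). With sex in the model, which sets mutant 1 alone against the controls, it was -0.69. Hypocretin itself (*Hcrt*), made in the hypothalamus, averaged 5.77 ± 0.29 in P9 controls and 5.71 ± 0.02 in P9 mutants (SD, n = 2 each), and the groups overlapped at P9 and at P14.

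*Cckbr* encodes the main cholecystokinin receptor of brain, which is expressed by cortical neurons and binds the sulfated CCK octapeptide. Its P14 value was 10.34, 9.78 and 9.84 in controls 2, 10 and 12 and 8.94, 8.82 and 8.93 in mutants 1, 9 and 11. The mutants differed little among themselves and all lay below the lowest control, and control 2 was the highest. The log2 change of *Cckbr* was -1.09, or 2.13-fold lower (standard error 0.15, adjusted p = 0.0249 from limma). Leaving out a mouse gave changes of -1.19 to -0.91. The call was lost without control 10 (adjusted p = 0.0707), control 12 (0.0859), mutant 9 (0.135) or mutant 11 (0.143). It was also lost with sex as a covariate (-1.04), which sets mutant 1 alone against the controls. At P9 *Cckbr* was 8.21 and 7.89 in controls and 7.87 and 7.82 in mutants, and the groups were nearly touching. The P9 change was -0.21 (95% confidence interval -0.51 to 0.09), and -0.05 without control 2 or -0.37 without control 3. P14 change minus P9 change was -0.88 (standard error 0.23), with an adjusted p of 0.786 for the limma interaction of age and genotype.

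The windows from 250 bases before to 50 bases after the annotated start of *Hcrtr2* and *Cckbr* are shown because these are the receptors called at P14. They were taken from RefSeq (mouse build GRCm38.p6), where 28 of the 34 receptors had an entry. *Hcrtr2* is on the minus strand at chr9:76323574-76323873 and *Cckbr* on the plus strand at chr7:105425481-105425780. Capitals mark an EGR motif.

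*Hcrtr2*: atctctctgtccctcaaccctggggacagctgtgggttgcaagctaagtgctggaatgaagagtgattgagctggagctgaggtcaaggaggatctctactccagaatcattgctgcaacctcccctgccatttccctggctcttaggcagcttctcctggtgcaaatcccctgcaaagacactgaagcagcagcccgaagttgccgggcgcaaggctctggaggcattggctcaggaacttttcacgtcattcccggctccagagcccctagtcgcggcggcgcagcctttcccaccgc

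*Cckbr*: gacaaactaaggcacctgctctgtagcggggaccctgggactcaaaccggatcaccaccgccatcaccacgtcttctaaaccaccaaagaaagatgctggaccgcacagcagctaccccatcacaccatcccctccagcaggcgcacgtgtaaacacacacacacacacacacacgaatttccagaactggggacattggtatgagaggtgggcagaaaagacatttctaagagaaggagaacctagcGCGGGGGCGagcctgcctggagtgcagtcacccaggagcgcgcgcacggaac

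The motifs searched, on either strand, were GCGNGGGCG (EGR), TGACGTCA (CREB), TGAGTCA (AP-1), CCGGAAG (ETS) and CAGATG (E-box). They belong to factor families known to act downstream of ERK and, for the E-box, to NEUROD factors. The *Cckbr* window held the EGR motif, as did 5.55% of 32851 promoters, and the *Hcrtr2* window none of the 5. Among the 35 windows of receptors the EGR motif also stood at *Sstr2*, the CREB motif at *Sstr2* (1.79% of all promoters), the AP-1 motif at *Npy1r* (5.2%), the ETS motif at *Adcyap1r1* and *Prokr2* (8.86%) and the E-box at *Mchr1*, *Oprl1*, *Sstr3* and *Tacr1* (17.2%). A match is a run of letters and not a measured binding site.

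Further receptors, *Mc4r*, *Mchr1* and *Sstr4*, had lower means in mutants at both loss-of-function ages, without overlap and without a call. *Mc4r*, the Gs-coupled melanocortin receptor known for the control of energy balance in the hypothalamus, was 8.50, 8.20 and 8.10 in P14 controls and 7.79, 7.77 and 7.76 in P14 mutants. The change was -0.49 (standard error 0.12, adjusted p = 0.128). At P9 *Mc4r* was 7.37 and 7.07 in controls and 5.99 and 6.48 in mutants (change -0.98, standard error 0.19, adjusted p = 0.179). All mutants lay below all controls at both ages.

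*Mchr1*, the Gi/o-coupled receptor for melanin-concentrating hormone, was 9.59, 9.55 and 9.31 in P14 controls and 8.85, 9.12 and 8.96 in mutants (change -0.51, standard error 0.11, adjusted p = 0.110). At P9 it was 7.51 and 7.54 in controls and 6.82 and 7.11 in mutants (change -0.56, standard error 0.12, adjusted p = 0.204). *Sstr4*, a somatostatin receptor, was 11.04, 10.86 and 10.82 in P14 controls and 10.58, 10.44 and 10.52 in mutants (change -0.40, standard error 0.09, adjusted p = 0.131). Its P9 values of 9.32 and 9.24 in controls and 8.83 and 8.91 in mutants gave a change of nearly the same size, -0.41 (standard error 0.09, adjusted p = 0.212).

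*Sstr1*, another somatostatin receptor, was 9.37, 9.25 and 9.08 in P14 controls and 9.02, 8.67 and 9.01 in mutants, which all lay below the controls (change -0.33, standard error 0.13, adjusted p = 0.492). At P9 its change was 0.18, with the mutants above the controls. *Sstr2* had a P14 change of 0.43 with overlapping groups (standard error 0.25, adjusted p = 0.843), and control 2 (10.46) and mutant 1 (10.77) were each the highest of their group. *Sstr3* had a change of 0.14, also with overlap (adjusted p = 0.938). The peptide somatostatin (*Sst*), from an interneuron class without Cre, had changes of -0.49 at P9 (adjusted p = 0.223) and -0.29 at P14 (adjusted p = 0.339).

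*Ntsr1*, *Tacr1*, *Oprl1* and *Npy1r* had higher means in mutants at both loss-of-function ages, again without overlap. *Ntsr1*, the Gq-coupled neurotensin receptor that marks layer 6 corticothalamic neurons in mouse, was 9.10, 8.17 and 8.15 in P14 controls and 9.77, 9.30 and 9.33 in mutants. Control 2 stood well above the other controls and lay close to the lowest mutant. The change was 0.99 (standard error 0.27, 1.99-fold, adjusted p = 0.197), and leaving out a mouse gave 0.83 to 1.31. Its P9 values were 7.95 and 8.01 in controls and 8.08 and 8.34 in mutants (change 0.23, standard error 0.11, and 0.10 to 0.36 with a mouse left out). Neurotensin (*Nts*) itself had a P9 change of -1.41 (standard error 0.16, adjusted p = 0.0809) and was below the line in both groups at P14.

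*Tacr1*, the substance P receptor, which in cortex is known from interneurons that express somatostatin and nitric oxide synthase, was 7.70, 7.78 and 7.75 in P14 controls and 8.11, 8.48 and 8.61 in mutants. The controls lay close together, and all mutants were higher. The change was 0.66 (standard error 0.13, 1.58-fold, adjusted p = 0.0861). With sex in the model, which sets mutant 1 alone against the controls, it was 0.37. At P9 *Tacr1* was 6.78 and 6.70 in controls and 6.92 and 7.03 in mutants (change 0.23, standard error 0.09). *Tac1*, the gene for substance P, had a P14 change of -1.35 (standard error 0.33, adjusted p = 0.146).

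*Oprl1*, the nociceptin receptor, was 9.65, 9.49 and 9.36 in P14 controls and 10.10, 9.96 and 10.03 in mutants (change 0.53, standard error 0.10, adjusted p = 0.0701). At P9 it was 9.10 and 9.09 in controls and 9.21 and 9.14 in mutants, a change of 0.08. *Npy1r*, the Y1 receptor for neuropeptide Y, was 8.78, 8.38 and 8.28 in P14 controls and 9.13, 8.84 and 9.07 in mutants (change 0.53, standard error 0.15, adjusted p = 0.214). At P9 it was 7.79 and 7.81 in controls and 8.14 and 7.99 in mutants, a change of 0.26 (standard error 0.09). *Npy5r* lies beside *Npy1r* on chromosome 8, with 9.05 kb between the gene bodies, and had changes of 0.04 at P9 and 0.26 at P14, below the line in every loss-of-function mouse. Neuropeptide Y (*Npy*) had a P14 change of -0.45 (standard error 0.14, adjusted p = 0.292).

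**Figure D3:**
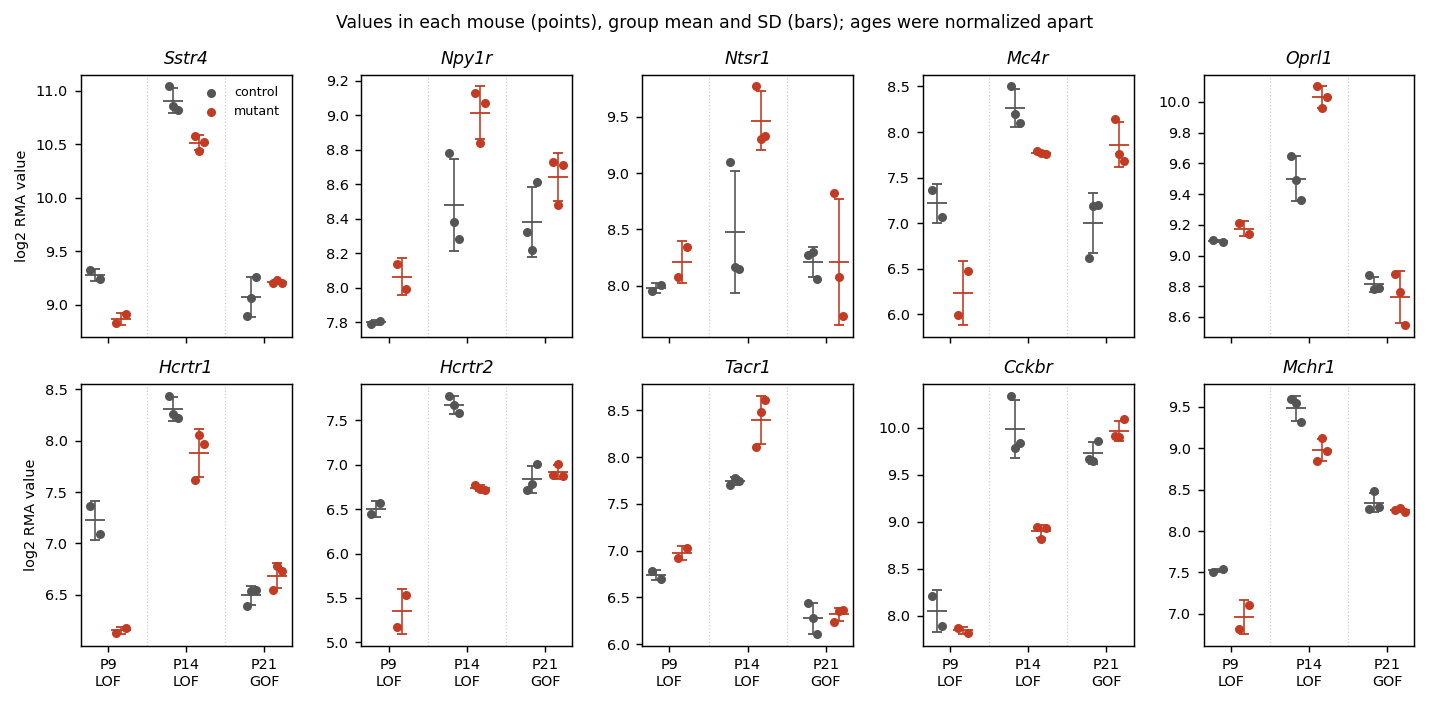
Log2 value (y axis, a scale per gene) in each mouse for the 10 receptors described mouse by mouse, controls grey and mutants red, with group mean and SD, in the P9 and P14 loss-of-function arrays (LOF) and the P21 gain-of-function arrays (GOF). At P14 the mutants lie below the controls for *Sstr4*, *Mc4r*, *Hcrtr1*, *Hcrtr2*, *Cckbr* and *Mchr1* and above them for *Npy1r*, *Ntsr1*, *Oprl1* and *Tacr1*. Heights are not comparable between ages.

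The remaining 24 receptors had P14 changes from -0.56 (*Trhr*) to 0.47 (*Prokr2*), with means higher in 16 and lower in 8 and no overlap in 2. Of all genes 13.6% did not overlap, but lack of overlap was also a ground for describing a receptor mouse by mouse. The lowest adjusted p of the 24 was 0.322 (*Trhr*, a thyrotropin-releasing hormone receptor with 1 of 6 mice above the line). The mu and kappa opioid receptors *Oprm1* and *Oprk1* had log2 changes of -0.13 and -0.12, the CRH receptors *Crhr1* and *Crhr2* of 0.07 and -0.07, the VIP receptors *Vipr1* and *Vipr2* of 0.10 and 0.15, *Adcyap1r1* of 0.07, *Oxtr* of 0.13 and *Avpr1a* of 0.08, with adjusted p-values of 0.877 (*Vipr2*) or more in limma. For *Adcyap1r1* the 95% confidence interval was -0.38 to 0.53.

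Because the P14 arrays formed different sets, the comparison was repeated within them. With the set as a block, 11 receptors were called, against 6.69% of all genes (1333 of 19938). *Sstr4*, *Mc4r*, *Hcrtr2*, *Cckbr* and *Mchr1* were lower and *Sstr2*, *Npy1r*, *Ntsr1*, *Oprl1*, *Tacr1* and *Prokr2* higher. The adjusted p was 2.00e-04 for *Hcrtr2*, 9.53e-04 for *Cckbr*, 0.0014 for *Ntsr1*, 0.00351 for *Oprl1* and 0.00441 for *Tacr1*. Among mice 9 to 12 alone (2 mutants and 2 controls), *Hcrtr2* had a change of -0.91 (adjusted p = 0.00188), *Cckbr* of -0.94 (0.00201), *Ntsr1* of 1.16 (7.86e-04), *Tacr1* of 0.78 (0.00415), *Npy1r* of 0.63 (0.0186) and *Oprl1* of 0.57 (0.0132). In that set both mutants were female and both controls male. Mouse 1 minus mouse 2, which are both male, gave -1.01 for *Hcrtr2*, -1.40 for *Cckbr*, 0.67 for *Ntsr1*, 0.41 for *Tacr1*, 0.35 for *Npy1r* and 0.45 for *Oprl1*, with no replicates. *Hcrtr1* was -0.22 among mice 9 to 12 and -0.82 between mice 1 and 2, and was not called with the block (adjusted p = 0.0791).

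**Figure D4:**
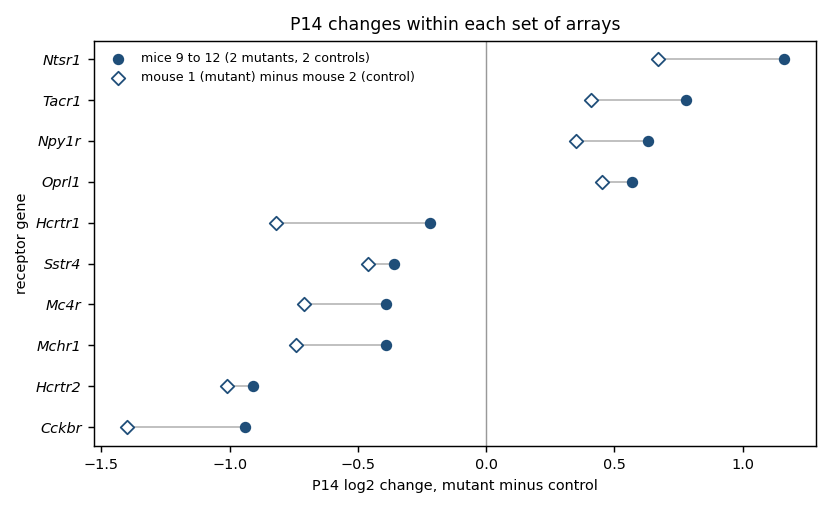
P14 log2 change, mutant minus control (x axis), of 10 receptors (y axis) among mice 9 to 12 (filled circles, 2 mutants and 2 controls) and between mouse 1 and mouse 2 (open diamonds, no replicates). The sign is the same in both sets for all 10, as it must be where mutants and controls do not overlap at P14. The sets lie farthest apart for *Hcrtr1* (-0.22 and -0.82).

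At P9, with 2 mice a group, no receptor was called by limma, and 0.0752% of all genes were (15 of 19938). An unadjusted p under 0.05 was reached by 13 receptors, 3 higher and 10 lower, and by 10.5% of all genes. The thresholds of the methods were passed by *Mc4r*, *Hcrtr1* and *Hcrtr2*, all lower, where 1.11% of all genes passed. Groups did not overlap in 24 receptors, 11 higher and 13 lower in mutants, where 41.7% of all genes did not overlap. The median change was 0.01 for receptors and for all genes, and the median size of change 0.21 and 0.09. The 24 receptors not described mouse by mouse had P9 changes from -0.54 (*Trhr*) to 0.38 (*Vipr2*), with a lowest adjusted p of 0.264 (*Vipr2*).

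Receptors that lay apart in the same direction at P9 and P14 numbered 11, where 6.78% of all genes did so. *Npy1r*, *Npy5r*, *Ntsr1*, *Oprl1* and *Tacr1* were higher, and *Sstr4*, *Mc4r*, *Hcrtr1*, *Hcrtr2*, *Cckbr* and *Mchr1* lower. No mouse was measured at more than 1 age. No receptor differed in its change between P9 and P14 by the limma interaction at an adjusted p under 0.05, and neither did any gene (0%). At an unadjusted p under 0.05, 8 receptors and 4.26% of all genes did. Apart from *Cckbr*, the lowest p-values were those of *Hcrtr1*, whose change was less negative at P14 by 0.65 (standard error 0.20, adjusted p = 0.973), and *Oprl1*, whose change was higher at P14 by 0.45 (standard error 0.14, adjusted p = 0.991).

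Other cell types and regions were read beside these values. Each range here is that of the list's mean log2 value over the mice of a group. At P14 the markers of cortical excitatory neurons averaged 10.59 to 10.88 in controls and 10.18 to 10.30 in mutants, with a median change of -0.01 over 8 markers. In that list *Neurod6*, whose promoter drives the Cre, had a fitted change of -3.07 (adjusted p = 0.00765), at least 3.97-fold lower as its mutants lay below the line, and no other marker was called. In P21 mutants, which carry the same Cre, the lowest change in the list was -0.24. The cause of the *Neurod6* change was not tested. The 14 interneuron markers averaged 9.60 to 9.69 in controls and 9.62 to 9.76 in mutants, and the 7 hypothalamic markers 7.59 to 7.81 and 7.56 to 7.90, and neither separated the groups. The 10 endothelial and pericyte markers averaged 8.53 to 8.76 in controls and 8.25 to 8.50 in mutants, and the 9 hippocampal markers, which include *Neurod6*, 8.24 to 8.46 and 7.93 to 8.03. At P9 the 8 thalamic markers, 7 of them above the line in controls, averaged 7.28 to 7.33 in controls and 7.02 to 7.09 in mutants, and the 11 striatal markers, 10 of them above it, 7.32 to 7.36 and 7.48 to 7.58. The excitatory neuron markers averaged 9.85 to 9.90 in P9 controls and 9.53 to 9.67 in mutants. Their median P9 change was 0.06, with 5 higher, 3 lower and a lowest change of -1.8. The 9 astrocyte markers averaged 9.77 to 9.80 in P9 controls and 9.92 to 10.02 in mutants, and the hypothalamic markers 5.41 to 5.45 and 5.38 to 5.39. At P21 the lists that separated the groups were oligodendrocytes (9.11 to 9.26 in controls and 8.95 to 9.02 in mutants), excitatory neurons (9.73 to 9.81 and 9.68 to 9.71), thalamus (7.24 to 7.29 and 7.33 to 7.36) and hippocampus (7.25 to 7.38 and 7.39 to 7.48). The other marker lists overlapped or touched at each age. The part of these differences in the receptor values was not tested.

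In P21 gain-of-function cortex no receptor was called by limma, nor was any of the 22180 genes (0%), and the lowest adjusted p of a receptor was 0.243 (*Mc4r*). An unadjusted p under 0.05 was reached by 8 receptors, 5 higher and 3 lower, and by 10.4% of all genes. Groups did not overlap in 8 receptors, against 15.8% of all genes: *Npy2r*, *Adcyap1r1*, *Mc4r*, *Cckbr* and *Prokr2* were higher and *Sstr2*, *Npy5r* and *Oprk1* lower. Of these, *Npy2r*, *Prokr2* and *Oprk1* were not above background in either P21 group. At the thresholds of the methods *Mc4r* alone passed, where 0.604% of all genes did. The median change of receptors and of all genes was 0.01. The 24 receptors not described mouse by mouse had changes from -0.32 (*Trhr2*) to 0.56 (*Npy2r*).

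*Mc4r* was 6.62, 7.19 and 7.20 in P21 controls 2, 4 and 5 and 8.14, 7.76 and 7.68 in mutants 1, 3 and 6. Control 2 was the lowest and mutant 1 the highest, and the groups did not overlap. The change was 0.86 (standard error 0.18, 1.81-fold), with an adjusted p of 0.243 in limma, and 0.67 to 0.96 with a mouse left out. *Npy2r*, the Y2 receptor, was 5.46, 5.51 and 5.51 in controls and 6.53, 5.92 and 5.70 in mutants, and only mutant 1 lay above the line. Its change was 0.56 (standard error 0.19, adjusted p = 0.371).

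*Cckbr* was 9.67, 9.65 and 9.86 in P21 controls and 9.91, 9.90 and 10.09 in mutants, so that the lowest mutants lay just above the highest control. The change was 0.24 (standard error 0.09, adjusted p = 0.401). *Hcrtr2* was 6.72, 6.78 and 7.01 in controls and 6.88, 7.01 and 6.87 in mutants, with overlapping groups and a 95% confidence interval of -0.13 to 0.30. *Hcrtr1* was 6.39, 6.54 and 6.55 in controls and 6.55, 6.78 and 6.73 in mutants (change 0.19, interval -0.01 to 0.39).

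*Ntsr1* was 8.27, 8.30 and 8.06 in P21 controls and 8.82, 8.08 and 7.73 in mutants, whose values ran on both sides of the controls (interval -0.56 to 0.56). *Tacr1* was 6.44, 6.28 and 6.11 in controls and 6.24, 6.35 and 6.36 in mutants, and *Oprl1* 8.87, 8.78 and 8.79 in controls and 8.88, 8.76 and 8.55 in mutants, both with overlapping groups. *Npy1r* was 8.32, 8.22 and 8.61 in controls and 8.73, 8.48 and 8.71 in mutants (change 0.26, interval -0.02 to 0.53). *Sstr4* was 8.89, 9.06 and 9.26 in controls and 9.20, 9.23 and 9.20 in mutants, and *Mchr1* 8.26, 8.48 and 8.29 in controls and 8.25, 8.28 and 8.23 in mutants. In *Sstr4* the mutants lay within the range of the controls.

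Set side by side, *Mc4r*, *Cckbr* and *Npy5r* lay apart at P14 and at P21 in opposite directions, 3 receptors of 34, where 1.8% of the 18962 genes on both arrays did so. *Mc4r* had changes of -0.49 at P14 and 0.86 at P21, *Cckbr* of -1.09 and 0.24, and *Npy5r* of 0.26 and -0.23. The P14 gap of *Npy5r* is smaller than its rounding, since control 2 and mutant 1 both read 7.01. Age, array type and model differ between these comparisons, and the size of the difference was not tested.

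The ligands of these receptors were measured on the same arrays. Of 26 measured peptide genes, *Adcyap1* (PACAP) fell at P9 by 1.28 (standard error 0.12, adjusted p = 0.0472 from limma). At P14 it fell by 1.45 (standard error 0.21, adjusted p = 0.0260), with all 3 controls and 2 of 3 mutants above the line. Its receptor *Adcyap1r1* had changes of 0.06 at P9 and 0.07 at P14. *Trh*, for thyrotropin-releasing hormone, rose at P14 by 0.67 (standard error 0.09, adjusted p = 0.0249), with 1 of 3 controls and all 3 mutants above the line, and its receptors *Trhr* and *Trhr2* had changes of -0.56 and 0.06 without a call. No other peptide gene was called at either age. *Cck*, the ligand of *Cckbr*, averaged 11.65 ± 0.24 in P14 controls and 10.95 ± 0.25 in mutants (SD, n = 3 each). That change was -0.69 (standard error 0.16, adjusted p = 0.127), and at P9 it was -0.62 (adjusted p = 0.130). At P21 no ligand was called, and changes ran from -0.15 to 0.47.

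Of 39 measured genes for G proteins, RGS proteins, receptor kinases, arrestins and receptor accessory proteins on the loss-of-function arrays, none was called at P9 or P14. The largest P14 change was that of *Rgs4*, a GTPase activator for Gi/o and Gq, which averaged 11.70 ± 0.11 in controls and 10.78 ± 0.32 in mutants (SD, n = 3 each, change -0.92, adjusted p = 0.0519). *Ramp3*, a partner of calcitonin-family receptors, had changes of -1.04 at P9 (adjusted p = 0.177) and -0.79 at P14 (adjusted p = 0.0955). At P21 the 40 measured genes had changes of -0.31 to 0.34, with no call.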

How the data were processed

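RNA of mouse cortex was measured on Affymetrix gene arrays in 16 mice. The authors deposited log2 values made with the RMA algorithm (background adjustment, quantile normalization, median polish). The submitters' processing notes name Partek 6, and the genome build is not given in the sources used here. No scanner files were used, and precision is limited by the small number of arrays.

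Probe sets with 1 gene symbol in the platform annotation were kept (21789 of 35557, and 23521 of 41345 at P21) and a gene was read from its brightest. For each age, mutant minus control was fitted with limma 3.58.1 under R 4.3.3 (lmFit, eBayes, two-sided, Benjamini-Hochberg over all genes, called at an adjusted p under 0.05). Every adjusted p and standard error is from limma. The methods' thresholds (unadjusted p under 0.05, over 1.5-fold) were counted beside it with the limma p-values, whereas the study took its p-values from a mixed-model ANOVA. Mice came from 2 litters at P9 and 3 at P14, but which mouse came from which is not given, so they were not paired, and where litters were shared the p-values measure only the spread between these mice. The scripts were tested on simulated data.

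Receptors given in full were those called, those past the methods' thresholds, and those without overlap in the same direction at P9 and P14 with a P14 change of 0.3 or more. The receptors, lists, rules and tests were chosen with earlier results of these data known. Alternatives were quantile normalization, median centring, a filter under the 30th percentile, other variance moderation, the mean of probe sets, P9 and P14 in 1 fit, array sets, sex, other background lines, and leaving out each mouse. Centring before the interaction fit was chosen after seeing the data.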

Additional observations from a re-analysis of the deposited data

Results flagged for a closer look

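In *Mc4r*, *Cckbr* and *Npy5r* all mutants lay on one side of the controls in the loss-of-function model, at P9 and at P14, and on the other side in the gain-of-function model at P21. *Mc4r* had changes of -0.98 at P9, -0.49 at P14 and 0.86 at P21. *Cckbr* had changes of -0.21, -1.09 and 0.24. *Npy5r* had changes of 0.04, 0.26 and -0.23, and lay below the background line in every loss-of-function mouse. Of the 18962 genes on both arrays, 1.8% lay apart in opposite directions at P14 and P21 and 4.19% at P9 and P21. Only the P14 change of *Cckbr* was called. The difference between models was not tested, because the arrays, ages and normalizations differ.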

How the results depend on the processing

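Of 389 alternative values for the 10 receptors described mouse by mouse, 344 kept direction and call, 30 gained a call, 9 lost it and 6 changed sign. All 9 losses were of *Hcrtr2* or *Cckbr* at P14, the only results that had a call. Most of the 389 values therefore had no call to lose. The sign changed only at P21, in receptors with changes near 0 and a mouse left out: *Ntsr1* (0.03, 0.04, 0.06 and 0.24, over a range of -0.31 to 0.24), *Tacr1* (-0.04, over -0.04 to 0.12) and *Oprl1* (0.00, over -0.16 to 0.00). At P14, where 2 receptors were called, 4 were called after quantile normalization and 6 with P9 and P14 in 1 fit. The array set as a block gave 11, mice 9 to 12 alone 10 and no moderation 0. Calls over all 19938 genes moved with them, from 217 to 341, 480, 1333, 984 and 18 in the same order. With sex as a covariate neither call was kept, but that fit sets mutant 1 alone against the controls. The filter on dim probe sets, which leaves *Hcrtr2* untested at P14, called *Cckbr* and *Oprl1*, and 269 of 13956 genes. Leaving out a mouse gave 0 to 3 calls at P14, 0 without mutant 11, 1 without control 10, control 12 or mutant 9, and 3 without control 2 or mutant 1. Calls over all genes also moved, from 217 to 42 without control 10, 39 without control 12, 137 without control 2 and 304 without mutant 1. Those without mutant 9 or mutant 11 are not reported here. At P9, where none was called, the filter called 2 (*Hcrtr1* and *Hcrtr2*), trended and robust moderation 4 (with *Sstr4* and *Mc4r*) and the joint fit 2, while calls over all genes went from 15 to 61 (of 13956 tested), 235 and 42. Leaving out a mouse gave 0 calls at P21. At P9 it leaves 1 mouse in a group, so those fits were read for the size of change only. With the 99th percentile as background line, 12 receptors in controls and 11 in mutants passed at P21. No paired analysis was possible because mutants and controls share no replicate numbers in the labels and the litter of each mouse is not given. The causes of these differences were not tested.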

Other observations

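Peptide receptors outside the 34 were also measured, 41 on each array type. *Glp2r*, the receptor for glucagon-like peptide 2, rose in loss-of-function cortex, from 6.53 ± 0.12 (SD, n = 2) to 7.65 ± 0.05 (SD, n = 2) at P9 and from 7.60 ± 0.07 (SD, n = 3) to 8.96 ± 0.08 (SD, n = 3) at P14. Its changes were 1.13 (adjusted p = 0.0468 from limma) and 1.35 (adjusted p = 0.00167), and at P14 all 3 mutants and 2 of 3 controls lay above the background line. *Npffr2*, the receptor for neuropeptide FF, rose at P9, with a fitted change of 1.24 (adjusted p = 0.0468), at least 1.64-fold since its controls lay below the line. It had a P14 change of 0.51 (adjusted p = 0.0780), with every mouse below the line. *Nmur1*, a neuromedin U receptor, rose at P14 by 0.61 (adjusted p = 0.0360) and had a P9 change of 0.54 (adjusted p = 0.158). None of the 41 fell past the test at P9 or P14, and none was called at P21.

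*Rxfp2*, the receptor for insulin-like 3, was 7.71 ± 0.30 (SD, n = 3) in P14 controls and 6.98 ± 0.09 (SD, n = 3) in mutants, and 7.64 ± 0.34 (SD, n = 3) in P21 controls and 8.54 ± 0.37 (SD, n = 3) in mutants. Its P14 mutants lay below the line. Neither the loss-of-function change (-0.73, adjusted p = 0.0955) nor the gain-of-function change (0.91, adjusted p = 0.253) was called by limma, and the difference between them was not tested.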
